A study of Cyprinus carpio with 12 samples.

Results

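The genes described here are the ubiquitin ligase and deubiquitinase genes of the common carp (Cyprinus carpio), taken by symbol from the RefSeq gene table of assembly ASM1834038v1. Protein-coding genes placed on a chromosome were kept when their symbol began with usp, ube, ubr, rnf, trim, cul or asb and a digit, or with fbx, klhl or march. The rule found 177 genes of 41870 placed protein-coding genes. There were 40 RNF, 32 FBX, 25 TRIM, 24 UBE, 18 USP, 16 KLHL, 9 ASB, 5 CUL, 4 UBR and 4 MARCH genes. Of all placed protein-coding genes, 77.0% are known only by a LOC number, so carp copies without a family symbol were not counted. A symbol is no proof of function: not every TRIM, FBX, KLHL or ASB protein is a known ligase subunit, and usp6nl, caught by its letters, is known in mammals as a GTPase-activating protein and not as a protease.

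Ubiquitin is passed from an activating enzyme to a conjugating enzyme (E2, here the ube2 genes) and then, with the help of a ligase (E3), onto a chosen protein. Ligases of the RING kind (rnf, march, trim, ubr) bring E2 and target together, HECT ligases such as ube3a carry ubiquitin themselves, and cullins hold a RING protein at one end and an exchangeable adaptor of the F-box, BTB-Kelch or SOCS-box kind (fbx, klhl, asb) at the other. Ubiquitin-specific proteases (usp) take the chain off again. In animals the system clears maternal proteins in early embryos and removes proteins during sperm formation.

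Whole-genome bisulphite sequencing measured CpG methylation in 4 groups of 3 libraries. Stored sperm had been kept for 14 days on ice in a salt extender, and fresh sperm was taken at 0 days. The other groups were pools of mid-blastula embryos fathered by stored sperm and pools of mid-blastula embryos fathered by fresh sperm. Sperm came from hormone-injected mature males, each giving fresh and stored samples, and the eggs of 1 female were used. The males were stripped more than once, so storage and the stripping a sample came from cannot be told apart here. Embryo pools average over cells and siblings. The labelled cell types could not be checked against marker genes, because the files list only changed regions.

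The deposited data were a list of differentially methylated regions for each comparison, 41022 in sperm and 39021 in embryos, each with 1 mean methylation level per group. A region counted for a gene when it lay in the gene body or within 1 kb of it. A region is called hypermethylated when its level was higher in stored sperm, or in embryos from stored sperm, and hypomethylated when it was lower. Differences are given as percentage points, stored minus fresh. The files hold no level per library and no read depth, so no value below carries an SD, and the listed levels had already been selected by the authors for a difference of at least 10 points.

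In sperm, 49 of the 177 genes (27.7%, exact 95% interval 21.2 to 34.9%, counting error only) held a listed region, against 28.3% of all placed protein-coding genes. Longer genes hold more regions, so the count was also set against genes of like length, which gave 48.6 genes. In embryos, 44 genes (24.9%, interval 18.7 to 31.9%) held a region, against 26.9% of all genes and 46.0 genes at like length. In both comparisons the number of listed ubiquitin genes thus lay close to the number at like length. Regions lay in both lists for 21 genes, against 14.5% of all genes and 22.6 genes at like length. Another 28 genes were listed in sperm only, 23 in embryos only, and 105 in neither list. Of all 41870 genes, 11869 were listed in sperm, 11258 in embryos and 6081 in both. In either set of genes, the counts for a single list or for neither follow from such totals. They are no separate result about the ubiquitin genes.

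**Figure D1:**
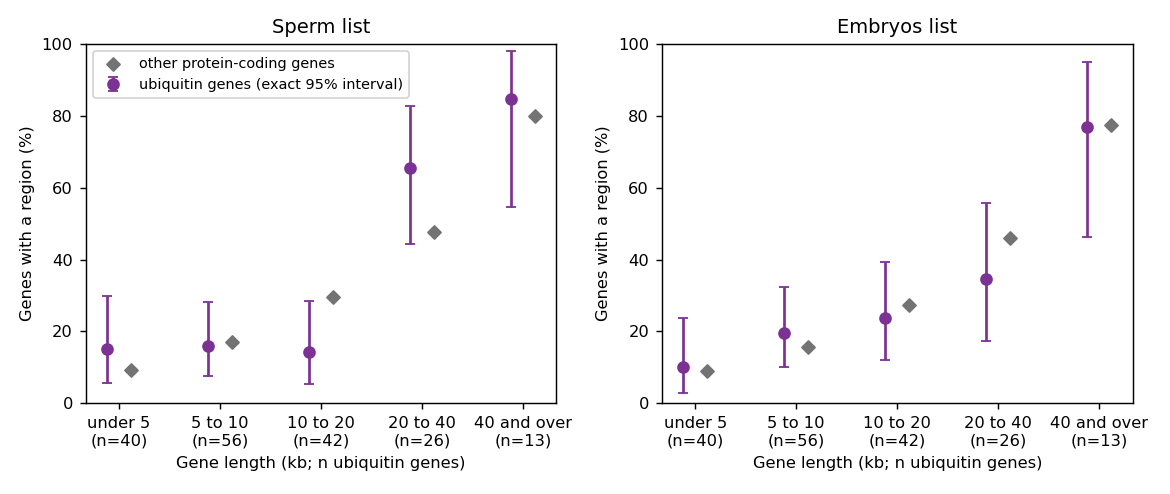
Share of genes with at least 1 listed region (%) by gene length (kb), for the ubiquitin genes (circles, with exact 95% intervals that cover counting error only) and for other protein-coding genes (diamonds), in the sperm list (left) and the embryo list (right). The share climbs with length in the other genes of both lists and in the ubiquitin genes of the embryo list. In sperm the ubiquitin genes stay level up to 20 kb (15.0%, 16.1% and 14.3%) and are higher above it. The ubiquitin genes lie to both sides of the others: in sperm 65.4% against 47.8% at 20 to 40 kb, but 14.3% against 29.7% at 10 to 20 kb.

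The direction of the regions differed between the lists. Of 103 sperm regions in ubiquitin genes, 74 were hypermethylated and 29 hypomethylated, a hypermethylated share of 71.8% (interval 62.1 to 80.3%) against 64.0% over the regions of all genes. Of 86 embryo regions, 39 were hypermethylated and 47 hypomethylated, a share of 45.3% (interval 34.6 to 56.5%) against 50.1% over all genes. Counted by gene, 42 ubiquitin genes held a hypermethylated region in sperm (23.7%, against 21.3% of all genes and 35.8 genes at like length) and 16 a hypomethylated one (9.04%, against 13.2% and 21.8 genes). In embryos 30 genes held a hypermethylated region (16.9%, against 16.7% and 27.7 genes) and 20 a hypomethylated one (11.3%, against 16.5% and 27.5 genes). The intervals around both region shares include the shares of all genes, and regions of 1 gene are not independent of each other.

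Most changes were small shifts of highly methylated DNA. The median size of a change was 11.9 points in sperm and 11.7 points in embryos, against 12.2 points over the gene regions of either list. Hypermethylated sperm regions had median levels of 96.7% in stored and 84.2% in fresh sperm, and hypomethylated ones 77.2% in stored and 92.5% in fresh sperm. In embryos the medians were 95.4% after stored and 83.2% after fresh sperm for hypermethylated regions, and 84.2% after stored and 96.0% after fresh sperm for hypomethylated regions. A change of 20 points or more was seen in 8 sperm regions (7.77%, against 8.23% over all genes) and 7 embryo regions (8.14%, against 9.08%). A mean level of 75% or more was held by 82.5% of the sperm regions, against 81.1% over all genes. In embryos it was held by 89.5%, against 79.5%. Only 4 sperm and 2 embryo regions had a mean level under 25%, and these lay in rnf150b, rnf121 and trim8a. Regions outside the gene body, in the flank only, numbered 5 of 103 in sperm and 5 of 86 in embryos, against 5.34% and 5.68% of the gene regions of all genes in the sperm and embryo lists.

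**Figure D2:**
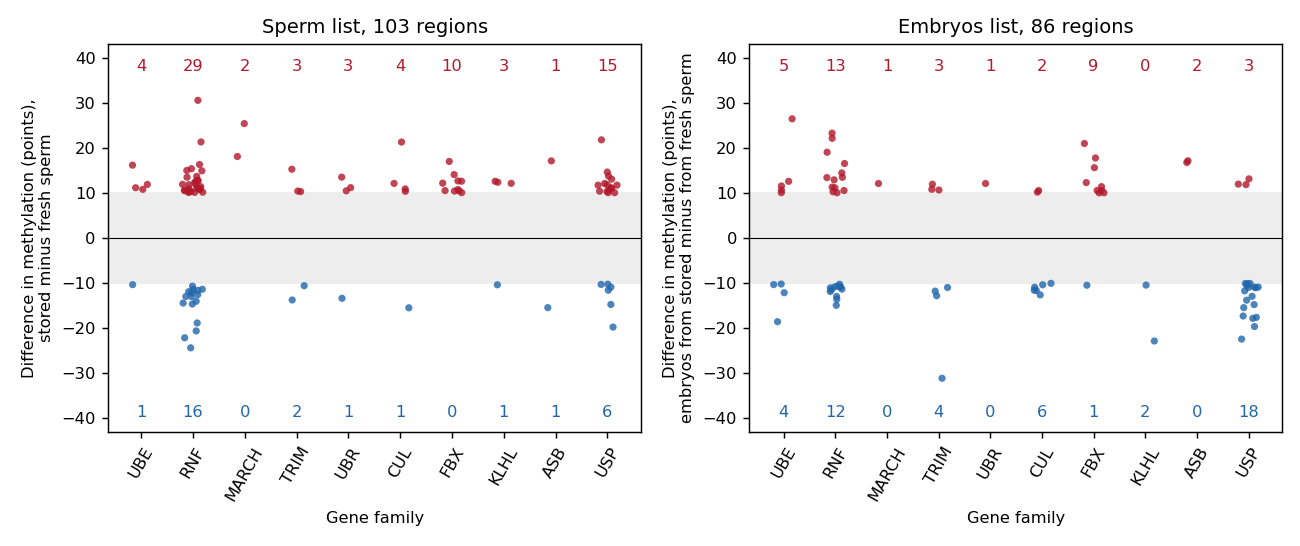
Difference in methylation (percentage points, stored minus fresh) of each region in a ubiquitin gene, by gene family, for the sperm list (left) and the embryo list (right); each point is 1 region, the grey band marks the 10 points below which nothing was listed, and the numbers count the regions above and below 0. FBX regions lie above 0 in 10 of 10 cases in sperm and 9 of 10 in embryos, while USP regions are 15 above and 6 below in sperm and 3 above and 18 below in embryos.

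Each region's p-value could be turned back into a rank count, because the deposited p-values matched a rank-sum test on 3 values per CpG and group in 99.9% of regions of either list. This gives the share of value pairs (1 stored, 1 fresh) that lie in the direction of the mean difference, on the assumption that ranks and means point the same way. Over the ubiquitin genes it ran between 66.5% and 89.3% in sperm (median 77.1%) and between 66.7% and 92.0% in embryos (median 78.7%). The single CpG values of the groups thus overlapped in every one of these regions. The share follows from the p-value and the number of CpGs alone. Only regions with p below 0.05 were listed, so low shares could not occur. Values of CpGs in the same region need not be independent, and a high share is no separate support for a region.

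The UBE genes include those of conjugating enzymes and HECT ligases. Of 24 UBE genes, 3 held a region in sperm (5.76 at like length) and 6 in embryos (5.42). ube2d4, an E2 of the group that works with many RING ligases, had 93.5% methylation in stored and 77.4% in fresh sperm over 7 CpGs (chromosome A8, 20683608 to 20683918). Its relative ube2d2 was listed in embryos, with 99.4% after stored and 87.8% after fresh sperm. ube2e2, another E2, took opposite directions in the lists. Near its upper end it had 98.1% in stored and 87.0% in fresh sperm, while its 3 embryo regions were all lower after stored sperm. The largest of these lay 593 bp beyond the gene, with 74.9% in embryos from stored sperm and 93.4% in embryos from fresh sperm. A body region of ube2e2 had 87.2% after stored and 99.3% after fresh sperm, with 85.4% of value pairs in that direction.

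The largest gain of any ubiquitin gene in embryos lay beside ube3a, the HECT ligase whose maternal copy is lost in Angelman syndrome in humans. The region (chromosome A6, 23838662 to 23838718, 10 CpGs) ends 948 bp below the gene's lower end and had 77.0% methylation in embryos from stored sperm, against 50.6% in embryos from fresh sperm. No ube3a region was listed in sperm. ube3c, a HECT ligase that works at the proteasome, held 3 sperm regions and 1 embryo region. Its sperm levels were 96.7% stored and 84.8% fresh, then 97.4% stored and 86.6% fresh, and, in the other direction, 84.9% stored and 95.2% fresh. In embryos ube3c had 97.9% after stored and 87.4% after fresh sperm, with 85.8% of value pairs in that direction. ube2wb, related to an E2 that marks protein N-termini, was lower in embryos from stored sperm, at 86.8% against 97.0% in embryos from fresh sperm. ube2o, which acts as E2 and ligase at once, held 2 regions in embryos, both higher after stored sperm.

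Of 40 RNF genes, the largest family, 17 were listed in sperm (13.5 at like length) and 9 in embryos (12.9). Together they held 29 hypermethylated and 16 hypomethylated regions in sperm, and 13 and 12 in embryos. The hypermethylated shares, 64.4% in sperm and 52.0% in embryos, lay close to the 64.0% and 50.1% over all genes. Much of this came from rnf150b and rnf121. Without them the other RNF genes held 15 and 5 regions in sperm and 7 and 2 in embryos.

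rnf7 had the largest loss in sperm. It encodes a RING subunit of cullin ligases, the part that binds the loaded E2. Over 6 CpGs inside the gene (chromosome B18, 6194177 to 6194254) the level was 52.3% in stored and 76.7% in fresh sperm. rnf220b had 97.5% in stored and 81.2% in fresh sperm, with 88.4% of value pairs in that direction. Its copy rnf220a was higher in stored sperm too, at 97.5% against 83.8% in fresh sperm. At another place rnf220a had 85.3% in embryos from stored sperm and 95.6% in embryos from fresh sperm.

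rnf167, a RING ligase of endosomal membranes, changed the same way at the same place in both lists. In sperm a region of 14 CpGs (chromosome B5, 27119139 to 27119510) had 74.5% in stored and 61.7% in fresh sperm. Within it, an embryo region of 7 CpGs had 44.8% after stored and 25.8% after fresh sperm. Both lie close to the gene's upper end, within 1867 bp of it. rnf130, a relative of Drosophila Goliath, was hypermethylated in all 4 of its regions, 2 in each list. Its largest change was in embryos, with 92.0% after stored and 75.5% after fresh sperm. rnf13, an endolysosomal RING ligase, held 3 sperm regions, all higher in stored sperm by 10.3 to 11.7 points, near its lower end. rnf216, a ligase that carries ubiquitin on a RING, was lower in stored sperm (75.4% stored against 89.5% fresh, 11 CpGs). At another place it was higher in embryos from stored sperm (92.3%, against 82.0% in embryos from fresh sperm). rnf139, a ligase of the endoplasmic reticulum membrane, had 97.0% in stored and 86.8% in fresh sperm, and 251 bp away 83.4% after stored and 94.2% after fresh sperm in embryos.

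marchf4, a membrane RING ligase, was hypermethylated in both lists. In sperm 1 region had 80.6% in stored and 55.2% in fresh sperm (chromosome A9, 28018205 to 28018352), a gain of 25.4 points. Further along the gene, stored and fresh sperm had 96.7% and 78.6%, and an embryo region 60 bp away had 98.0% after stored and 85.7% after fresh sperm. It was the only listed gene of 4 in its family, against 1.22 genes at like length in sperm and 1.18 in embryos. The flank of rnf180a, 46 bp below the gene, had 97.1% in stored and 83.7% in fresh sperm.

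Among the 25 TRIM genes, 3 were listed in sperm (4.93 at like length) and 6 in embryos (4.59). trim35-40, from a group with many copies in fish, had the largest loss of all: 60.9% methylation in embryos from stored sperm, against 92.0% in embryos from fresh sperm, over 5 CpGs (chromosome B25, 12048952 to 12049085). It also had the highest share of value pairs in one direction, 92.0%. trim35-13 was lower too, at 86.5% after stored and 99.3% after fresh sperm, with 90.7% of pairs in that direction. Near-identical copies can share reads, and the mapping of such reads was not described for these genes. trim8a stood apart by its level, listed at 0.00% after stored and 11.0% after fresh sperm over 5 CpGs. trim25, which in mammals acts in antiviral signalling through RIG-I, had 87.9% after stored and 77.3% after fresh sperm over 12 CpGs.

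trim44, a family member that lacks the RING domain in mammals, was the one gene with overlapping regions at more than 1 place. At chromosome A25, 19271061 to 19271207, stored sperm had 83.5% and fresh sperm 97.2%. The embryo region there (19271079 to 19271216) had 86.3% after stored and 98.0% after fresh sperm, a loss in both lists over 129 shared bases. Further along the gene the directions were opposite, with 75.0% in stored and 85.6% in fresh sperm, against 85.0% after stored and 73.1% after fresh sperm in embryos, over an overlap of 6 bp. Another sperm region of trim44 was hypermethylated, at 87.3% in stored and 72.1% in fresh sperm, with 86.2% of pairs in that direction.

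Some UBR genes, ubr1 and ubr2 among them, encode ligases that read the N-terminal residue of their targets. Of 4 UBR genes, 3 were listed in sperm (1.77 at like length) and 1 in embryos (1.73). ubr1 was higher after storage in both lists, at 91.1% in stored and 80.6% in fresh sperm and at 96.9% after stored and 84.7% after fresh sperm in embryos. ubr2 held regions of opposite direction in sperm, and its loss (84.8% in stored, 98.2% in fresh) was the larger. ubr3 had 93.3% in stored and 79.8% in fresh sperm.

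Of 5 cullin genes, cul4a and cul1b were listed in both sperm (1.93 genes at like length) and embryos (1.81). cul4a encodes the scaffold of ligases that use DDB1 as adaptor. Its annotated gene is 254.7 kb long and held 4 sperm and 7 embryo regions, against a median of 11 for the 100 other genes nearest in length. Neighbouring sperm regions 26 bp apart changed in opposite directions: 7 CpGs had 48.8% in stored and 27.6% in fresh sperm, and the next 24 CpGs had 37.3% in stored and 52.7% in fresh sperm. In embryos, 4 regions at the upper end of cul4a, spread over 7.892 kb, were all lower after stored sperm, with differences between 10.0 and 12.6 points. cul1b, the scaffold of ligases that use F-box proteins, had 95.2% in stored and 84.4% in fresh sperm, and, 345 bp away, 88.4% after stored and 99.3% after fresh sperm in embryos.

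F-box genes, which supply the target-binding part of cul1 ligases, changed mostly in one direction. Of 32 genes, 7 were listed in sperm (6.75 at like length) with 10 hypermethylated regions and 0 hypomethylated, against 64.0% hypermethylated over all genes. In embryos 10 were listed (6.40 at like length) with 9 hypermethylated regions and 1 hypomethylated, against 50.1% over all genes. fbxo41 held 3 of the sperm regions, and without it the count was 7 and 0. This contrast between families was picked after the values of all 10 families had been seen and has no test.

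fbxo42 had the largest gain of the family. In embryos its region near the upper end (chromosome A22, 256407 to 256442) had 49.3% after stored and 28.4% after fresh sperm, and another part of the gene had 92.2% in stored and 79.5% in fresh sperm. fbxw9, at whose lower end the region straddles the gene boundary, had 44.1% in stored and 27.2% in fresh sperm. Just 27 bp beyond fbxo9, embryos from stored sperm had 55.2% and embryos from fresh sperm 37.5%. These were the 3 F-box regions with the lowest levels. They lay at or near a gene end, but so did highly methylated F-box regions, such as that of fbxo11b below. fbxo11a, which in mammals recruits BCL6, was higher after storage in both lists at nearly the same place: 99.5% in stored and 89.1% in fresh sperm, and 55 bp away 99.5% after stored and 83.9% after fresh sperm. Its copy fbxo11b had 93.3% in stored and 80.7% in fresh sperm, 287 bp beyond the gene. The only loss was in fbxw11b, a beta-TrCP gene, with 87.3% after stored and 97.8% after fresh sperm in embryos. fbxo32, the muscle atrophy F-box gene, had 98.9% after stored and 87.5% after fresh sperm in embryos.

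BTB-Kelch and SOCS-box adaptors bring targets to cullins other than cul1. Of 16 KLHL genes, 4 were listed in sperm (3.54 at like length) and 1 in embryos (3.27). That one was klhl14, with 74.2% after stored and 97.0% after fresh sperm over 10 CpGs (chromosome B24, 20256328 to 20256383). In sperm the largest gain was in klhl11, at 62.5% stored and 50.0% fresh, and the flank of klhl40b, known for its role in muscle, had 96.1% stored and 84.0% fresh. Of 9 ASB genes, 2 were listed in sperm (1.27 at like length) and 2 in embryos (1.15). asb2b, whose relative in mammals targets filamins, was higher after storage in both lists: 91.6% in stored and 74.5% in fresh sperm, and 31 bp away 90.3% after stored and 73.1% after fresh sperm over 14 CpGs. The gene shares this stretch with another annotated gene, LOC109061160. asb14b had its region 710 bp below the gene, with 82.7% in stored and 98.1% in fresh sperm, and asb13a.1 had 85.9% after stored and 69.2% after fresh sperm in embryos, also in the flank.

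**Figure D3:**
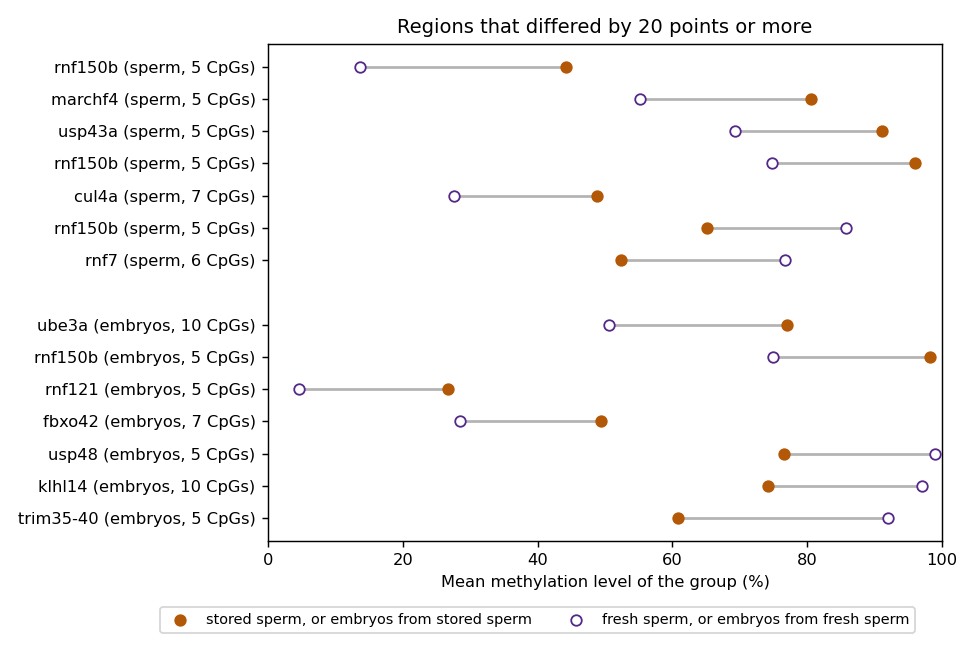
Mean methylation level (%) of regions that differed by 20 points or more, for the ubiquitin genes described in the text, 7 in sperm and 7 in embryos, in stored sperm or embryos from stored sperm (filled) and in fresh sperm or embryos from fresh sperm (open). Levels run between 4.58% and 99.0%, and 5 of the sperm and 4 of the embryo regions were higher after storage.

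USP genes held as many regions in one list as in the other, mostly hypermethylated in sperm and mostly hypomethylated in embryos. The counts include usp6nl, which is no protease, with 1 gain and 1 loss in sperm and 1 gain and 2 losses in embryos. Of 18 USP genes, 7 were listed in sperm (7.91 at like length) with 15 hypermethylated and 6 hypomethylated regions. That is a hypermethylated share of 71.4% (interval 47.8 to 88.7%), against 64.0% over all genes. In embryos 6 were listed (7.57 at like length) with 3 hypermethylated and 18 hypomethylated regions, against a hypermethylated share of 50.1% over all genes. Of these 18, 8 lay in usp43a, and regions of 1 gene are not independent. Counted by gene, 6 USP genes held a hypomethylated region in embryos (4.94 at like length) and 2 a hypermethylated one (4.93). In sperm 3 held a hypomethylated region (3.97) and 6 a hypermethylated one (6.16). Without usp43a, the gene with the most regions, the counts were 7 and 2 in sperm and 1 and 10 in embryos. That 1 embryo gain lay in usp6nl. Like the F-box contrast, this one was picked after the values were seen and has no test.

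usp54b shows the pattern within 1 gene. Its 3 sperm regions lay within the first kilobases and were higher in stored sperm, the largest with 96.7% stored and 82.1% fresh. Its 3 embryo regions lay further inside and were lower after stored sperm, the largest with 81.7% after stored and 99.3% after fresh sperm. usp49, which in humans acts on histone H2B, had 98.2% in stored and 84.5% in fresh sperm and, elsewhere in the gene, 87.1% after stored and 97.2% after fresh sperm. usp48 was listed in embryos only, with 76.6% after stored and 99.0% after fresh sperm (chromosome B11, 9881483 to 9881504), the largest loss of a USP gene. usp32, a membrane-anchored protease, held 3 embryo regions, all lower after stored sperm. The largest difference was 73.5% after stored against 90.8% after fresh sperm. The narrowest region had 88.2% after stored and 99.3% after fresh sperm, with 91.1% of pairs in that direction. In sperm alone, usp19 of the endoplasmic reticulum had 93.3% stored and 81.5% fresh, usp36 of the nucleolus 97.0% stored and 87.0% fresh, and usp53b 85.1% stored and 95.3% fresh. usp6nl, the gene that is no protease, had 60.8% in stored and 80.5% in fresh sperm at its largest change.

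The regions were unevenly spread over the ubiquitin genes, which differ in length. The spread over all genes was not counted. Of the 72 listed genes 44 held a single region, and the 4 genes with more than 10 regions (rnf150b, usp43a, rnf121 and cul4a) held 74 of 189, or 39.2%. These 4 are 108.6 to 581.4 kb long. With flanks they cover 1.33 Mb, against 4.11 Mb for all 177 ubiquitin genes. In the order named they held 24, 22, 17 and 11 regions, against medians of 21, 16, 5 and 11 in the other genes nearest in length. Without these 4, the hypermethylated share in sperm was 79.0% of 62 regions (interval 66.8 to 88.3%), against 64.0% over all genes. In embryos it was 54.7% of 53 regions (interval 40.4 to 68.4%), against 50.1% over all genes. The embryo share thus lies above 50% without these genes and below it with them, but both intervals include 50%. This leave-out was chosen after the data were seen. It was not made for all genes, whose shares still include long genes with many regions, so the shares are not like for like.

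rnf121, a RING gene of the endoplasmic reticulum and Golgi, held more regions than any of the genes of like length it was set against. It is 108.6 kb long and held 10 sperm and 7 embryo regions. The 100 other genes nearest in length (105.4 to 111.8 kb) held a median of 5 and at most 15. Directions were mixed, with 4 hypermethylated and 6 hypomethylated regions in sperm and 3 and 4 in embryos. The last 18.2 kb, at the upper end, held 8 of the 17 regions. There, 3 sperm regions within 530 bp lay at low levels: 14 CpGs with 26.2% in stored and 16.1% in fresh sperm, then 30.3% stored and 41.8% fresh, then 15.9% stored and 27.2% fresh. In mid-gene, embryos from stored sperm had 26.7% and embryos from fresh sperm 4.58% (chromosome B21, 13405066 to 13405134), one of 2 embryo regions that changed at least 2-fold. rnf121 was singled out after its count was seen.

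rnf150b, a transmembrane RING gene, is annotated over 581.4 kb and held 15 sperm and 9 embryo regions. The 100 other genes nearest in length held a median of 21, but they ran from 310.6 to 1054.1 kb. Per 100 kb, rnf150b held 4.13 regions, against a median of 4.86 in those genes. All 24 rnf150b regions also lie in LOC109085971, an overlapping gene, and the lists do not say to which gene a region belongs. rnf150b had the largest gain in sperm. At chromosome A23, 21803949 to 21804082, stored sperm had 44.2% and fresh sperm 13.6%, a gain of 30.5 points, while a region of 11 CpGs 225 bp before it had 17.1% in stored and 29.0% in fresh sperm. In embryos the largest gain had 98.2% after stored and 75.0% after fresh sperm, with 89.8% of pairs in that direction. A stretch of 4.855 kb held 6 regions of both lists. Its sperm regions began with a loss (65.1% stored, 85.7% fresh, 89.3% of pairs) followed by 3 gains, and its embryo regions were both losses. usp43a, a protease gene of 379.4 kb, held 12 sperm and 10 embryo regions. The 100 other genes nearest it in length (276.5 to 510.5 kb) held a median of 16. Per 100 kb, usp43a held 5.80 regions, against a median of 4.93 in those genes. Of the usp43a regions, 8 and 4 were hyper- and hypomethylated in sperm, and 2 and 8 in embryos. An overlapping gene, LOC109102937, also covers 7 of the sperm and 4 of the embryo regions. The largest usp43a gain in sperm, also inside LOC109102937, had 91.1% stored and 69.3% fresh. In embryos, regions 3 bp apart went opposite ways, with 72.8% after stored and 92.4% after fresh sperm, then 89.5% after stored and 76.4% after fresh sperm.

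**Figure D4:**
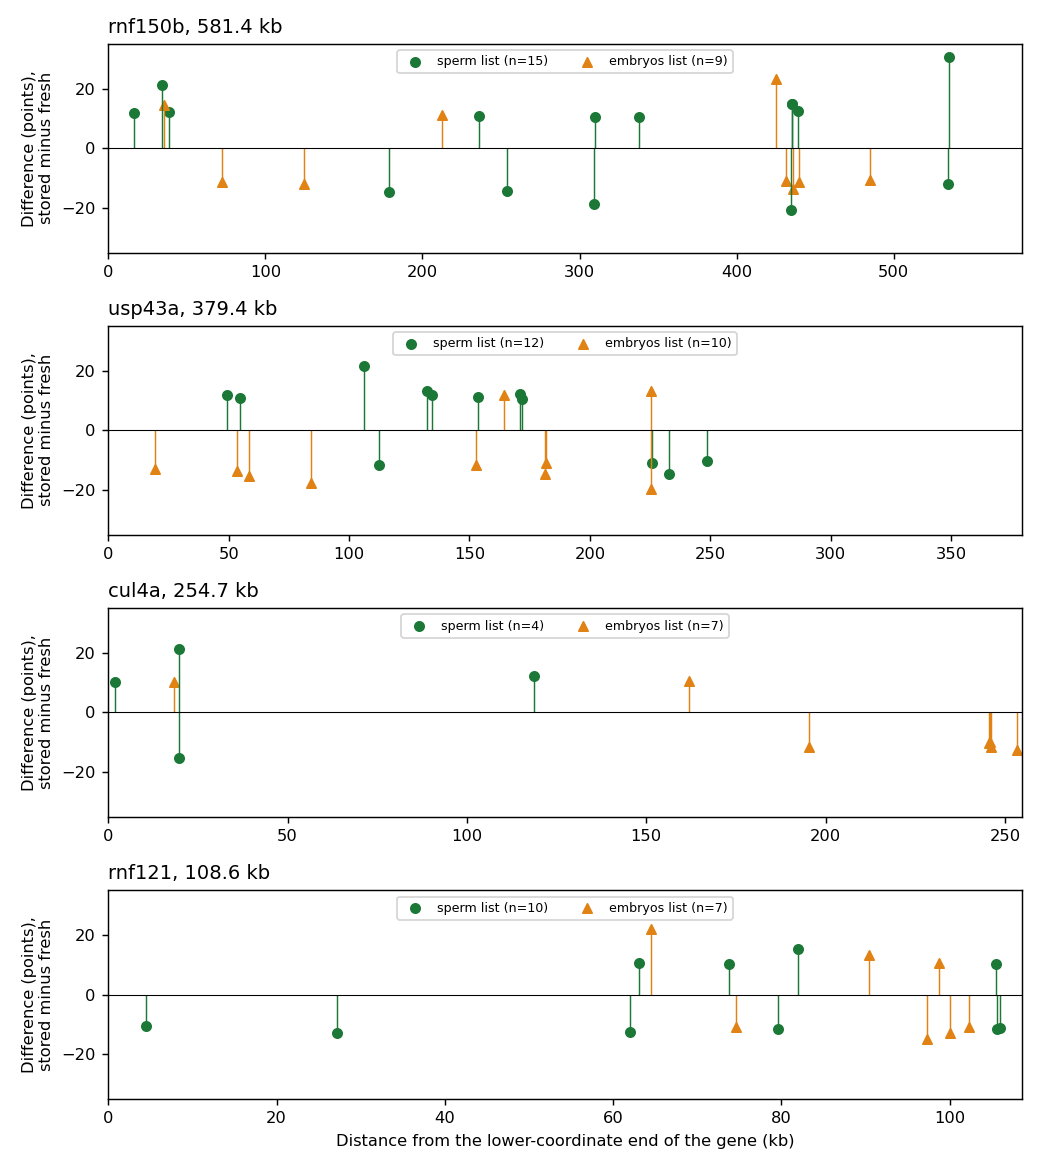
Difference in methylation (percentage points, stored minus fresh) of each region along the 4 genes with more than 10 regions, by distance (kb) from the lower-coordinate end of the gene; circles are sperm regions and triangles embryo regions. Gains and losses both occur along rnf150b and rnf121, and the usp43a embryo regions lie below 0 in 8 of 10 cases. The last 4 embryo regions of cul4a are all losses, as are the last 4 of rnf150b.

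Few places were shared between the sperm and embryo lists. In ubiquitin genes 3 pairs of sperm and embryo regions overlapped, or 2.91 per 100 sperm regions, against 1509 pairs or 7.14 per 100 sperm regions over all genes. The direction was the same in 2 of the 3 pairs, against 47.4% of the pairs of all genes. Another 10 pairs were less than 500 bp apart, 4 of them with the same direction, against 48.7% over all genes. By the mean of their regions, 8 of the 21 genes in both lists were higher after storage in both, among them marchf4, fbxo11a, fbxo42, asb2b and rnf130. Both means were lower in 2 genes (usp6nl and rnf121). In 9 genes sperm was higher and embryos lower, including usp43a, usp49, usp54b, ube2e2 and cul1b, and in 2 the reverse held (rnf216 and trim44). The sign of a mean says little where regions of a gene went both ways. In embryos the trim44 regions differed by -11.8 and 11.9 points, and rnf121 held 3 gains and 4 losses. The share in the same direction was 47.6%, against 49.4% of the 6081 genes with regions in both lists.

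Ubiquitin genes outside the symbol rule gave a like picture. Of 67 such genes found by name, 20 held a region in sperm (22.0 at like length) and 17 in embryos (20.9). They held 22 hypermethylated and 11 hypomethylated regions in sperm and 13 and 19 in embryos. The hypermethylated shares were 66.7% and 40.6%, against 64.0% and 50.1% over all genes. hecw2b, a HECT ligase, had the largest change: 93.0% in stored and 62.1% in fresh sperm over 11 CpGs (chromosome B1, 20687038 to 20687190), with 97.7% of pairs in that direction. In embryos a region overlapping it was lower after stored sperm, with 72.8% after stored and 88.7% after fresh sperm. prkn, the parkin ligase of mitochondrial quality control, had 83.2% after stored and 60.4% after fresh sperm in embryos, and 67.4% in stored and 84.2% in fresh sperm at another place. kbtbd2, a BTB-Kelch adaptor gene, had 22.2% after stored and 44.2% after fresh sperm in embryos, and 74.6% in stored and 90.3% in fresh sperm over 18 CpGs.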

How the data were processed

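Libraries were 3 each of stored sperm, fresh sperm and the embryos from either, per the labels. The authors mapped bisulphite reads with BSMAP, whose version is not stated in these sources, to ASM1834038v1, removed duplicates and deposited 1 level per region and group. The deposited levels are a fraction, here times 100. The methods define the level of a cytosine as methylated reads over all reads covering it. How cytosines and libraries were combined into the level of a region is not stated. The deposited p-value of a region is unadjusted; it was used here only as a filter and to recover rank counts. The deposited difference column is fresh minus stored and was recomputed as stored minus fresh. The methods state windows of at least 5 CpGs, a 2-fold change and a Fisher test. All listed regions had at least 5 CpGs, p below 0.05 and a difference of at least 10 points, but only 3.94% of sperm and 4.20% of embryo regions changed 2-fold, and the p-values took the values of a rank-sum test. The lists are longer than the region counts in the study's text, and which filter separates them is not stated, so every count here is of the deposited lists.

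Regions were given to genes by an overlap of 1 bp with the body or 1 kb flank. File chromosome names A1 to B25 were matched to the 50 RefSeq chromosomes in order, and the last region and last gene of a chromosome lay at most 129.6 kb apart. The gene table holds no strand, exon or sequence, so ends are named lower and upper by coordinate. Coordinates are printed as the files give them. Counts at like length sum, over the ubiquitin genes, the share of other genes with a region in 20 length bins of equal gene number. Exact (Clopper-Pearson) intervals have a level of 95%. No test between groups was made, as no level per library was in the files used. Alternatives changed the difference, CpG, p, fold, flank, overlap, bin and gene choices. Regions named were the largest gains and losses by list and family, overlapping pairs, flank regions, low levels and regions of 10 or more CpGs; the others were chosen after their values were seen, and the genes and lists with earlier results of these data known. 1 gene is counted but not reported here by name. The counting code was tested on simulated data. Python 3.11.15, pandas 2.3.3, numpy 2.4.6 and scipy 1.17.1 were used.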

Additional observations from a re-analysis of the deposited data

How the results depend on the processing

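Stricter limits left few regions, in the ubiquitin genes as over all genes. A 2-fold change was met by 2 of 103 sperm and 2 of 86 embryo regions in ubiquitin genes. Over all genes it was met by 732 of 21128 sperm and 714 of 19620 embryo regions. With only 2-fold changes, 1 gene was listed in sperm (0.356 times the count at like length), 2 in embryos (0.751 times) and 0 in both (0 times). The 2 sperm regions gave a hypermethylated share of 100% (43.9% over all genes). With differences of at least 20 points, 6 genes were listed in sperm, 7 in embryos and 1 in both. These were 0.998, 1.14 and 0.692 times the counts at like length, and the embryo share was 57.1% (51.5% over all genes). With at least 10 CpGs, 8, 7 and 3 genes were listed (1.06, 0.886 and 1.30 times the counts at like length). The sperm share was 60% (46.1% over all genes). With p below 0.001, 11 (0.764 times the count at like length), 17 (1.21 times) and 4 (0.979 times) genes were listed. Without the TRIM, FBX, KLHL and ASB genes, 25 of 95 genes were listed in embryos (0.817 times the count at like length). With each gene counted once by its mean difference, the embryo share was 56.8% of 44 genes, above 50. The like share over all genes was not computed. Of the alternatives, 3 were chosen after seeing the data. Apart from the 0.356 and 0.764 above, the sperm ratio stayed between 0.937 and 1.06. The embryo ratio stayed between 0.751 and 1.21 over all alternatives. Apart from the shares given above, the sperm share lay between 62.5 and 79.0% and the embryo share between 38.5 and 54.7%. The shares over all genes moved with some filters too. In sperm, 62.5% was found with differences of at least 20 points (45.5% over all genes) and with p below 0.001 (59.1%). In embryos, p below 0.001 gave 43.5% (49.6% over all genes), and at least 10 CpGs gave 50% (53.0%).

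No paired analysis was possible because the files hold 1 level per group. For the same reason leaving out single libraries was not run, depth per region is unknown, and a change carried by 1 library cannot be told from one shared by all 3. The lists hold changed regions only, so an unlisted gene cannot be told apart from one that was not covered.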
